A study of Ovis aries with 3 samples.

Results

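LY96, also called MD-2, is the small protein through which the innate receptor TLR4 binds bacterial lipopolysaccharide (LPS). Its transcript is described here across the cells of the lamb rumen epithelium under 3 diets. It was found by its symbol, carried by the single identifier ENSOARG00000006376 in all 3 gene tables, and is 1 of 26247 genes counted, of which 17043 have a symbol. The gene was chosen by its measured values, namely a high ratio of hay to milk only in keratinocytes, so its levels and ratios between diets are given as a description, with no test.

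LPS is the outer-membrane lipid of Gram-negative bacteria. The plasma protein LBP extracts it and passes it to CD14, which hands it to the pair formed by TLR4 and LY96, and LY96 holds the lipid part in a pocket. Such pairs then join each other, and the adaptor MYD88 carries the signal to NF-κB, whose target genes include both cytokines and the inhibitors that end the response. The rumen lining is a stratified squamous epithelium that keratinises towards a lumen full of bacteria.

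The samples were rumen epithelium of Hu sheep lambs (Ovis aries) aged 42 days, dissociated with trypsin and made into 1 droplet library per diet. The concentrate library came from milk plus concentrate starter, the hay library from milk plus alfalfa hay, and the third from milk alone, so all 3 diets contained milk. The number of animals behind each library is unknown here, and with 1 library per diet every difference between diets is also a difference between libraries. Levels are counts of unique molecular identifiers (UMIs) scaled to 1000000 UMIs of the cells summed (CPM). All intervals are 95% intervals that cover counting error only.

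The deposited matrices held 9214 barcodes with 60220174 UMIs for concentrate, 9543 with 56861548 for hay and 7032 with 63057979 for milk only. After filters on genes and mitochondrial share, 4891, 7031 and 3850 cells were kept, and 4683, 6997 and 3425 of them were keratinocytes. At most 8 kept barcodes were shared by any pair of libraries. Median depth per keratinocyte was 8283 UMIs with concentrate, 5897 with hay and 11651 with milk only, and the cell types differed in number: differentiated keratinocytes numbered 36, 24 and 704, T or NK cells 42, 4 and 313, macrophage or dendritic cells 50, 30 and 109, and fibroblasts 57, 0 and 0. Depth and cell makeup thus differed with diet, and LY96 is also given at matched depth and within states. The macrophage or dendritic class had 12, 10 and 10 of its 14 markers with a symbol at 20 CPM or more in the concentrate, hay and milk-only libraries, and the fibroblast class had all 8 of its markers in the concentrate library.

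Keratinocytes carried LY96 in every library, and the concentrate and hay libraries held more of it than the milk-only one. The 4683 concentrate keratinocytes gave 2644 LY96 UMIs, a level of 59.4 CPM (57.2 to 61.7). Hay keratinocytes gave 2820 UMIs, or 62.5 CPM (60.3 to 64.9), and milk-only keratinocytes 887 UMIs, or 18.7 CPM (17.5 to 20). The level with concentrate was 3.17 times that with milk only (2.94 to 3.43), a log2 ratio of 1.67, and with hay 3.34 times (3.10 to 3.61), a log2 ratio of 1.74. Both ratios share the milk-only library. Concentrate over hay was 0.950 (0.901 to 1.002). That interval includes 1 but covers counting error only, so it does not say whether the diets differ.

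All measured genes give the scale for those ratios. A gene counted as measured where it reached 10 CPM in 1 of the 2 libraries and 10 UMIs over both, and LY96 stood 31st from the top of 4722 such genes for concentrate over milk only. It was 20th of 4591 for hay over milk only and 3553rd of 4434 for concentrate over hay. Called genes are those past 1.5-fold with an interval excluding 1. In keratinocytes 9.51% of genes were called higher with concentrate than with milk only and 5.14% higher with hay than with milk only; 1.76% were called lower with concentrate than with hay. The median log2 ratio of all measured genes was 0.04 for concentrate over milk only, −0.17 for hay over milk only and 0.19 for concentrate over hay. Relative to these medians the log2 ratio of LY96 was 1.63, 1.91 and −0.26.

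**Figure D1:**
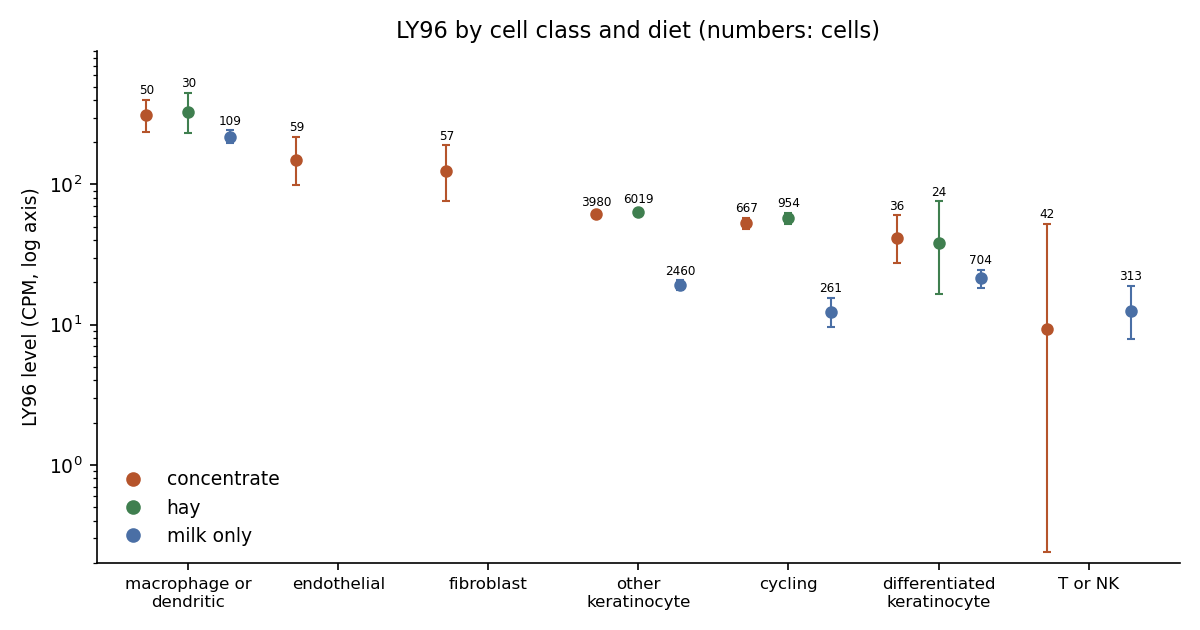
LY96 level in CPM (log axis) in each cell class, for the concentrate, hay and milk-only libraries; points are sums over the cells of a class with 20 or more cells and at least 1 LY96 UMI, bars are exact Poisson 95% intervals, and small numbers count the cells. Macrophage or dendritic cells stand highest, and in cycling and other keratinocytes the milk-only points (12.3 and 19.2 CPM) lie below those of the other diets.

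The difference was present within keratinocyte states. In cycling cells, which carry mitotic and replication genes, LY96 was at 53.1 CPM with concentrate, 57.2 CPM with hay and 12.3 CPM with milk only. The cycling ratio to milk only was 4.30 (3.35 to 5.59) with concentrate and 4.63 (3.61 to 6.02) with hay. The other keratinocytes were in clusters that took neither the cycling nor the differentiated name. Their LY96 level was 61.4 CPM with concentrate, 63.9 CPM with hay and 19.2 CPM with milk only.

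Differentiated keratinocytes, led by cornified-layer genes such as CNFN, gave few counts in the concentrate and hay libraries. Their LY96 level was 41.7 CPM with concentrate (28 UMIs in 36 cells), 38.5 CPM with hay (8 UMIs in 24 cells) and 21.4 CPM with milk only (184 UMIs in 704 cells). The ratio to milk only was 1.95 (1.26 to 2.91) with concentrate and 1.80 (0.766 to 3.62) with hay, and the second interval includes 1. Class membership depended on the clustering. At resolution 1.2 the levels were 32.2 CPM (88 concentrate cells), 45.9 CPM (34 hay cells) and 21.9 CPM (667 milk-only cells). The concentrate, hay and milk-only cells then split into clusters of 7, 5 and 667 and of 81, 29 and 0. At resolution 0.3 the class took in 2041 milk-only cells. Under 10% mitochondrial UMIs its milk-only level was 28.8 CPM. Within the milk-only library, cycling cells stood lowest of the 3 states at 12.3 CPM (9.66 to 15.6). Differentiated cells stood at 21.4 CPM (18.4 to 24.7) and other keratinocytes at 19.2 CPM (17.7 to 20.7).

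LY96 was detected as 1 or a few UMIs per cell. The share of keratinocytes with at least 1 UMI was 38.9% with concentrate (37.5 to 40.3, Clopper-Pearson), 31.3% with hay (30.2 to 32.4) and 19.2% with milk only (17.9 to 20.6). These shares follow depth as well as level, and milk-only cells were the deepest. Thinned to 2000 UMIs per cell, with 69, 0 and 219 shallower cells left out, the shares were 11.7% with concentrate, 11.8% with hay and 3.68% with milk only. At least 2 UMIs were found in 12.9%, 7.25% and 4.96% of keratinocytes. If each cell carried its library's level at its own depth, 40.4%, 32.2% and 21.4% would hold a LY96 UMI in the concentrate, hay and milk-only libraries. Each observed share is under its value. For 2 or more UMIs the same calculation gives 11.9%, 6.72% and 3.74%, and each observed share is above it. The largest count in any keratinocyte was 6 UMIs.

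Among cells of like depth, milk only was again the lowest library. Among keratinocytes of 4000 to under 8000 UMIs, 34.1% carried LY96 with concentrate, 30.5% with hay and 11.3% with milk only, at 74.1, 65.5 and 22.6 CPM. Among those of 8000 to under 16000 UMIs the shares were 41.7%, 41.1% and 19.6%, at 54.8, 56.0 and 21.5 CPM. Concentrate over hay was 1.13 in the shallower of these bins, against 0.950 over all keratinocytes, so the order of concentrate and hay depended on which cells were compared. Milk-only cells lay below concentrate and hay cells in each of the 4 bins from 2000 to under 32000 UMIs, with no overlap of intervals. At 32000 UMIs or more, 40 concentrate cells stood at 52.8 CPM (42.1 to 65.3) and 203 milk-only cells at 15.1 CPM (12.7 to 17.9), with 0 hay cells.

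**Figure D2:**
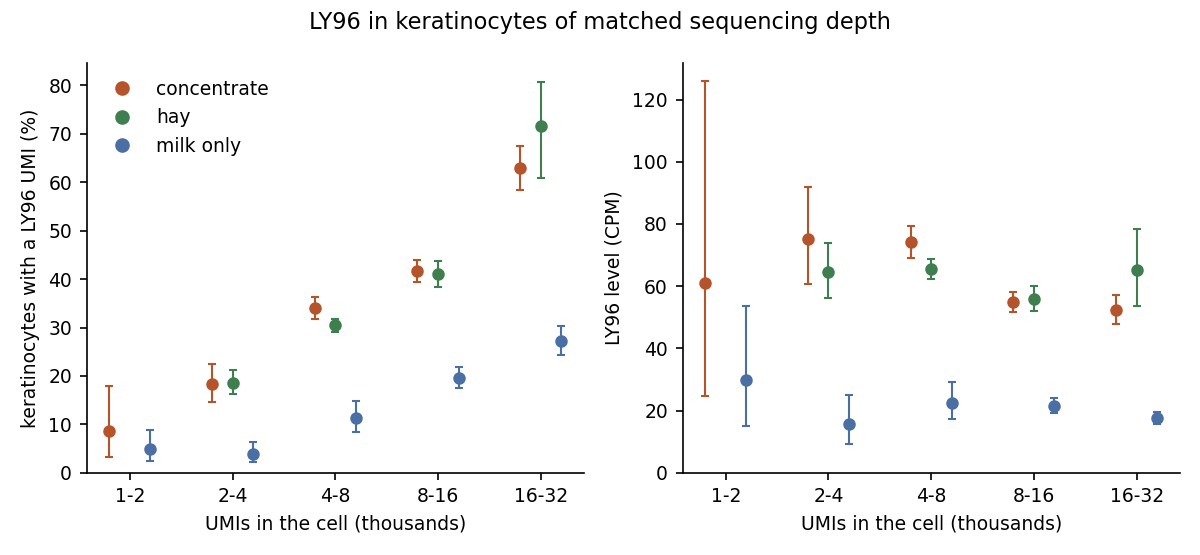
Left, the share of keratinocytes with at least 1 LY96 UMI (%), with exact Clopper-Pearson 95% intervals; right, the LY96 level (CPM) with exact Poisson 95% intervals, both by the number of UMIs in the cell for concentrate, hay and milk only. The share climbs with depth in every library, and the milk-only points stay below the others from 2000 to under 32000 UMIs.

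Keratinocyte clusters largely split by library, so most of them cannot show diets side by side. Cluster 5, a cycling cluster with 189 concentrate, 942 hay and 208 milk-only cells, held LY96 at 56.7 CPM with concentrate, 57.2 CPM with hay and 12.4 CPM with milk only. That is 4.57 (3.30 to 6.39) and 4.61 (3.50 to 6.18) times the milk-only level. In the second cycling cluster, 478 concentrate cells stood at 52.0 CPM and 53 milk-only cells at 12.1 CPM.

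Cluster 4, led by CDO1, a cysteine dioxygenase, had 88.8 CPM with concentrate (77.4 to 101) and 69.7 CPM with hay (62.7 to 77.3). Its leading genes also included CDT1, MSH6 and BRCA2, genes of DNA replication and repair, although it did not take the cycling name. Cluster 2, led by the heat-shock gene HSPA6 and the immediate-early gene FOSB, had 75.3 CPM with concentrate and 73.4 CPM with hay. The main concentrate cluster, led by THEM5, had 57.0 CPM in 2502 concentrate cells and 92.1 CPM in 31 hay cells (50.4 to 155), and the main hay cluster, led by FBP1, had 58.7 CPM in 3337 hay cells. Cluster 9, led by AKR1D1 and shallow at medians of 2313 and 2902.5 UMIs, had 34.2 CPM with concentrate (17.1 to 61.2) and 62.9 CPM with hay (47.6 to 81.5).

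The 2 large milk-only clusters had like levels although their leading genes differ. Cluster 3, led by GPNMB, had 19.7 CPM (17.6 to 21.9), and cluster 6, led by RCAN1, ZFP36 and ATF3, had 18.8 CPM (16.7 to 21.0). Their intervals overlap, and both lie below the intervals of all concentrate and hay clusters with 20 or more cells, except the differentiated hay cells and the concentrate cells of cluster 9, whose lower bounds reach 16.6 and 17.1 CPM.

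**Figure D3:**
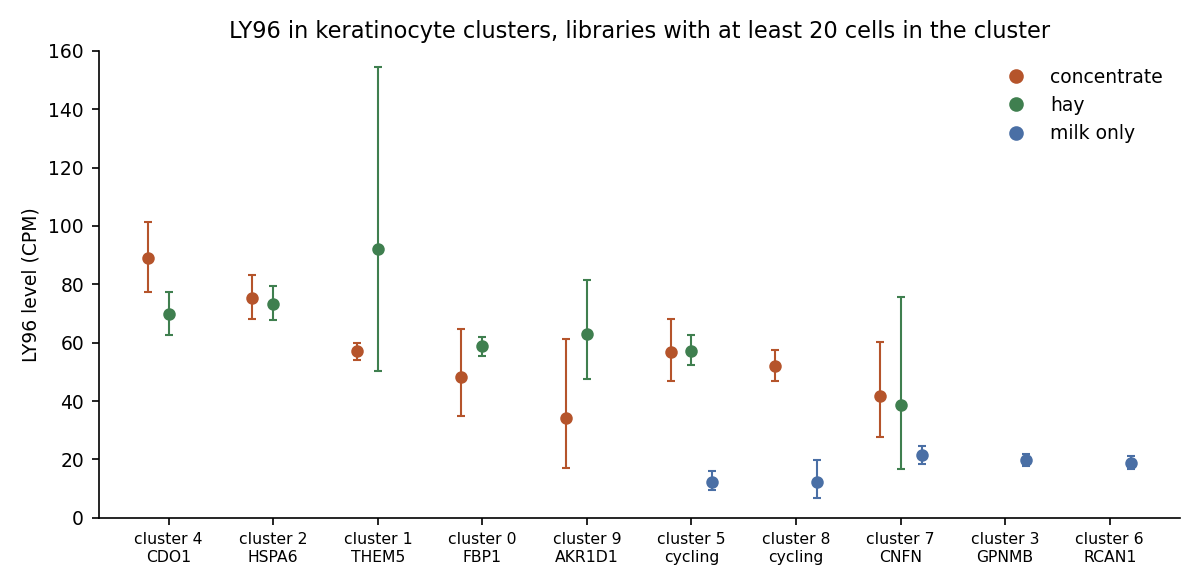
LY96 level (CPM) with exact Poisson 95% intervals in each keratinocyte cluster, for concentrate, hay and milk only, where a library has 20 or more cells in the cluster and at least 1 LY96 UMI; the name under each cluster is a leading gene or its class. Milk-only points lie between 12.1 and 21.4 CPM.

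Macrophage or dendritic cells, in which TLR4 signalling is best known, held the highest LY96 level in every library. It was 311 CPM with concentrate (60 UMIs, 50 cells), 329 CPM with hay (40 UMIs, 30 cells) and 219 CPM with milk only (344 UMIs, 109 cells). The ratio to milk only was 1.42 (1.06 to 1.88) with concentrate and 1.5 (1.05 to 2.09) with hay. Among cells with at least 1000 genes the levels were 230 CPM (30 cells), 280.04 CPM (21 cells) and 219 CPM (106 cells) with concentrate, hay and milk only. The ratios to milk only were then 1.05 (0.713 to 1.51) and 1.28 (0.830 to 1.89), and both intervals include 1. Under 10% mitochondrial UMIs, concentrate over milk only was 1.35 (1.00006 to 1.79), which barely excludes 1. Hay over milk only was then 1.41 (0.990 to 1.96), which includes 1. With a minimum of 2263 UMIs per cell the ratios were 1.39 (1.03 to 1.85) and 1.5 (1.05 to 2.09), and both intervals exclude 1. All these filters on the ratios were added after seeing the data. The median log2 ratio of all measured genes in this class was 0.30 and 0.44, and the LY96 log2 ratio exceeded it by 0.21 and 0.14. Here 14.5% of 5244 measured genes were called higher with hay than with milk only, and LY96 ranked 2280th; for concentrate it ranked 2217th of 5496, of which 14.9% were called higher. Concentrate over hay was 0.948 (0.625 to 1.45).

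The share of these cells with a LY96 UMI was 68.0%, 60% and 90.8% with concentrate, hay and milk only, at medians of 3614.5, 3598 and 13599 UMIs. At 2000 UMIs per cell the shares were 48.5%, 43.6% and 36.5%, so milk only was highest of the 3 before thinning and lowest after it. Within a library, macrophage or dendritic cells exceeded keratinocytes 5.24-fold (3.99 to 6.77) with concentrate, 5.25-fold (3.75 to 7.17) with hay and 11.7-fold (10.3 to 13.3) with milk only.

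Endothelial cells and fibroblasts came almost wholly from the concentrate library. There LY96 was at 150 CPM in endothelial cells (99.1 to 219, 27 UMIs in 59 cells) and at 124 CPM in fibroblasts (76.9 to 190, 21 UMIs in 57 cells), 2.53 and 2.09 times the keratinocyte level. The fibroblast level was 55.4 CPM when only the 28 cells with at least 1000 genes were counted. The milk-only library had 3 endothelial cells, with 2 LY96 UMIs. With all cells of each class counted, the order in the concentrate library ran from macrophage or dendritic cells through endothelial cells and fibroblasts, whose intervals overlap, to the keratinocyte states. Of these states the differentiated one overlaps both others. Among cells with at least 1000 genes the order changed, with fibroblasts at 55.4 CPM and other keratinocytes at 60.6 CPM.

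T or NK cells gave few LY96 counts. The class had 6 and 7 of its 10 markers with a symbol at 20 CPM or more with concentrate and milk only, and CD3D, NKG7 and CCL5 were at 0 with concentrate. These cells held 1 LY96 UMI in 42 cells with concentrate (9.38 CPM), none in 4 cells with hay and 22 UMIs in 313 cells with milk only (12.6 CPM, 7.87 to 19.0), beside 12.3 CPM in milk-only cycling keratinocytes. Their share of cells with a UMI in the milk-only library was 6.07% at a median of 4822 UMIs, against 19.2% of keratinocytes at 11651 UMIs, and at 2000 UMIs per cell it was 2.47% against 3.68%. The T or NK level was 0.671 times the keratinocyte level (0.418 to 1.02) in the milk-only library, an interval that includes 1, so LY96 in milk-only keratinocytes could not be told from the level in that class. In the concentrate library the same ratio was 0.158 (0.00400 to 0.880).

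Genes typical of one class were also counted in others, and whether free RNA, doublets or neither gave these counts was not tested. KRT15, a basal keratin, was found in T or NK cells at 23.5% of its keratinocyte level with concentrate and 11.5% with milk only, and in macrophage or dendritic cells at 12.5%, 13.9% and 17.7% with concentrate, hay and milk only. In the reverse direction, keratinocytes held LY96 at 19.1%, 19.0% and 8.55% of the macrophage or dendritic level in those libraries. The leukocyte gene PTPRC stood at 0.0177%, 0.0184% and 0.578% of that level. The 14 macrophage or dendritic markers summed to 55.7, 49.7 and 79.6 CPM in keratinocytes, or 0.668%, 0.769% and 0.450% of their level in macrophage or dendritic cells, and CST3, found in many cell types, made up most of these keratinocyte sums. Among single markers CD14 stood highest, at 6.28%, 8.37% and 139%, but from only 2, 1 and 3 UMIs in macrophage or dendritic cells. CD68 reached 4.11% with milk only. The 13 markers other than CST3 summed to 1.42, 1.66 and 10.3 CPM in keratinocytes, against 6851, 4231 and 13999.8 CPM in macrophage or dendritic cells of the concentrate, hay and milk-only libraries, and CSF1R was at 0 UMIs in concentrate and milk-only keratinocytes.

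The receptor that LY96 serves gave few counts in keratinocytes. TLR4 gave 32 UMIs in concentrate keratinocytes (0.719 CPM), 20 UMIs in hay keratinocytes (0.444 CPM) and 80 UMIs in milk-only keratinocytes (1.69 CPM, 1.34 to 2.10), and 0.683%, 0.286% and 2.22% of cells carried it. Milk only was thus the highest library for TLR4 and the lowest for LY96. In macrophage or dendritic cells TLR4 was at 62.3 CPM with concentrate (12 UMIs), 32.9 CPM with hay (4 UMIs) and 68.1 CPM with milk only (107 UMIs), with overlapping intervals. LY96 was found in 9 of 11, 2 of 4 and 49 of 52 TLR4-positive macrophage or dendritic cells, beside 34 of 50, 18 of 30 and 99 of 109 of all such cells with concentrate, hay and milk only. LY96 was found in 17 of 32, 7 of 20 and 15 of 76 TLR4-positive keratinocytes, beside 1820 of 4683, 2192 of 6997 and 658 of 3425 of all keratinocytes. Neither the TLR4 shares nor these counts were matched for depth. Detection rises with depth, so they do not show that the 2 genes go together.

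The genes that bring LPS to the receptor were low as well. CD14, which transfers LPS to LY96, was at 0.652 CPM in concentrate keratinocytes, 0.688 CPM in hay keratinocytes and 2.66 CPM in milk-only keratinocytes, and 78 of the 126 milk-only UMIs were in differentiated cells. Macrophage or dendritic cells held only 2, 1 and 3 CD14 UMIs. LBP, named after its values were seen because it starts the pathway, had 0, 1 and 45 UMIs in keratinocytes, and 43 of the 45 were in milk-only differentiated cells. SCARB1, a lipoprotein receptor that can also bind LPS, was at 10.3, 10.3 and 10.1 CPM in concentrate, hay and milk-only keratinocytes. The phagocyte genes MSR1, a scavenger receptor, and ITGB2, an integrin chain, had 4, 0 and 11 UMIs and 2, 3 and 20 UMIs in macrophage or dendritic cells, and ITGB2 had none in keratinocytes.

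The receptor complex also has relatives and chaperones. TLR2, a receptor for bacterial lipoproteins named after its values were seen, had 4, 0 and 36 UMIs in concentrate, hay and milk-only keratinocytes, and stood at 51.9, 41.1 and 36.9 CPM in macrophage or dendritic cells. LY86, the LY96 relative that pairs with CD180, had 0, 1 and 19 UMIs in macrophage or dendritic cells and 0, 0 and 1 in keratinocytes of the concentrate, hay and milk-only libraries. HSP90B1, the chaperone that folds Toll-like receptors, was abundant at 937 CPM in concentrate keratinocytes, 1284 CPM in hay keratinocytes and 977 CPM in milk-only keratinocytes. Its ratio to milk only was 0.959 (0.947 to 0.972) with concentrate and 1.31 (1.30 to 1.33) with hay. CNPY3, which assists HSP90B1, had 2, 4 and 7 UMIs in macrophage or dendritic cells, where hay over milk only was 7.37 (1.58 to 29.0).

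**Figure D4:**
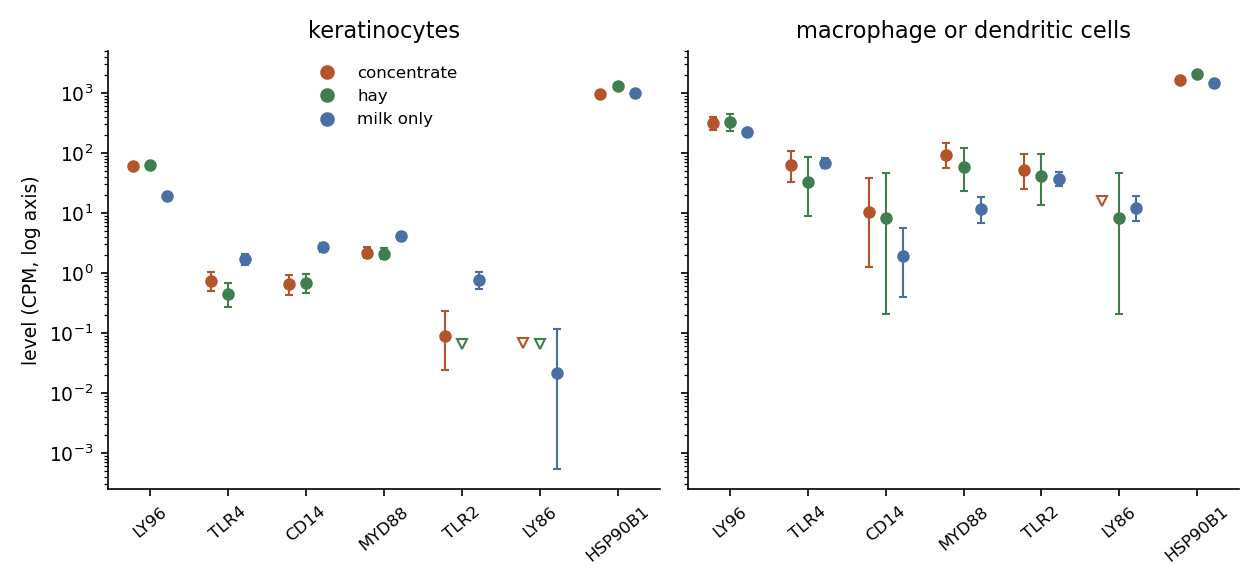
Level (CPM, log axis) of LY96, TLR4, CD14, MYD88, TLR2, LY86 and HSP90B1 in keratinocytes (left) and macrophage or dendritic cells (right) of the concentrate, hay and milk-only libraries, with exact Poisson 95% intervals; open triangles mark the level that 3 UMIs would give where none was counted. In keratinocytes the milk-only point is the lowest for LY96 and the highest for TLR4, CD14 and MYD88; levels are not scaled by transcript length, so heights are to be read within a gene.

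Around LY96, 110 other genes of LPS recognition, signalling and response were listed, 90 of them with a symbol in the files. The lists were written with earlier results of these data known, so the counts below are a description and no test of enrichment. In keratinocytes 21 were measured for concentrate over milk only: 1 was called higher, where 9.51% of all genes were, and 11 lower, where 13.0% were. For hay over milk only 20 were measured, with 0 called higher and 12 lower, beside 21.2% of all genes lower. The lists' median log2 ratio was −0.61 with concentrate and −0.78 with hay, beside 0.04 and −0.17 for all measured genes. Concentrate over hay gave 1 lower of 17 measured, NFKBIZ, and 0 higher, where 13.0% of all genes were called higher and 1.76% lower.

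PYCARD was the 1 listed gene called higher. PYCARD, the adaptor of the inflammasome, was at 12 CPM with concentrate, 8.10 CPM with hay and 3.02 CPM with milk only, 3.97 times (3.30 to 4.81) the milk-only level with concentrate. Hay did not reach 10 CPM for it and stood at 2.68 times (2.20 to 3.28). RIPK2, the kinase below the NOD receptors, was at 20.2 CPM with concentrate, 17.1 CPM with hay and 19.6 CPM with milk only and was not called.

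Of 5 measured adaptors and kinases, 2 were called lower with concentrate and 1 with hay. TRAF6, a ubiquitin ligase below MYD88, was at 16.1 CPM with concentrate, 13.95 CPM with hay and 25.6 CPM with milk only. RIPK1 was at 19.0, 24.2 and 32.4 CPM, and its hay ratio of 0.747 was not called. MYD88 itself, under 10 CPM in keratinocytes, was at 2.18, 2.08 and 4.05 CPM. IRAK4, TRAF3 and ECSIT were called in neither comparison with milk only.

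Of 4 measured transcription factors, 3 were called lower with concentrate and 4 with hay. REL, an NF-κB subunit, was at 35.4 CPM with concentrate, 26.1 CPM with hay and 63.8 CPM with milk only. IRF7, an interferon regulator, was at 4.49 CPM with concentrate, 1.75 CPM with hay and 19.6 CPM with milk only, 4.35-fold (3.73 to 5.09) and 11.2-fold (8.86 to 14.2) lower than with milk only. NFKB1 was called with hay only, at a ratio of 0.622.

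Of 8 measured negative regulators, 6 were called lower with concentrate and 7 with hay. TNFAIP3, an enzyme that edits ubiquitin chains, was at 3.93 CPM with concentrate, 4.17 CPM with hay and 60.9 CPM with milk only, and NFKBIA, the inhibitor that holds NF-κB in the cytoplasm, at 127, 133 and 1171 CPM. ZFP36, which binds and destabilises cytokine transcripts, was at 197, 149 and 1948 CPM, and SOCS3 at 5.60, 3.62 and 33.4 CPM. RNF216 was at 26.5, 26.8 and 25.7 CPM and was not called. None of the 16 target genes with a symbol was measured in keratinocytes.

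These counts leaned on 1 group of milk-only cells. Without milk-only cluster 6, which ZFP36 and ATF3 help to define, 5 of 21 measured genes were called lower with concentrate (IRF7, NFKBIA, RIPK1, TNFAIP3 and ZFP36), beside 12.4% of all genes, and 8 of 20 with hay, beside 21.5%. NFKBIA was then at 126 CPM with concentrate, 132 CPM with hay and 378 CPM with milk only, and NFKBIZ with hay turned to 1.12 times the milk-only level, against 0.369 with the cluster. The LY96 ratios without it were 3.18 with concentrate and 3.34 with hay.

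**Figure D5:**
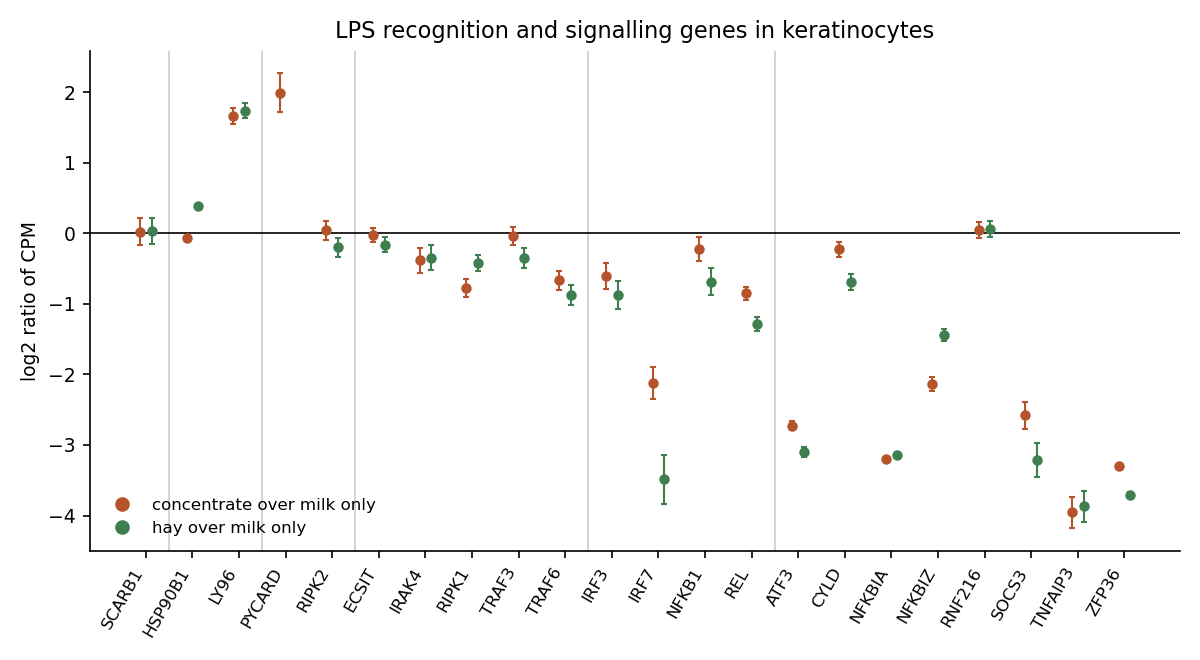
Log2 ratio of CPM in keratinocytes for concentrate over milk only and hay over milk only, with exact conditional binomial 95% intervals, for LY96 and each listed LPS gene measured in the comparison; vertical lines separate, from left, ligand handling, receptor complex, other receptors and sensors, adaptors and kinases, transcription factors and negative regulators. LY96, and PYCARD with concentrate, stand above 1. The lowest point is TNFAIP3 with concentrate at −3.95, IRF7 with hay lies at −3.48, and RNF216 lies near 0.

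In macrophage or dendritic cells more of the listed genes were measured. Of 54 measured genes 9 were called higher with concentrate than with milk only, where 14.9% of all genes were, and 15 lower, where 5.97% were. Hay over milk only gave 6 higher and 11 lower of 51, beside 14.5% and 4.88% of all genes. Concentrate over hay gave 8 higher and 0 lower of 28, beside 4.12% and 4.50% of all genes. MYD88 was at 93.4 CPM with concentrate, 57.5 CPM with hay and 11.5 CPM with milk only, from 18, 7 and 18 UMIs. TLR7, a sensor of single-stranded RNA, was at 72.7, 65.7 and 12.1 CPM, and TLR6, a partner of TLR2, at 77.9, 57.5 and 20.4 CPM. The lower genes included IL1B, at 1490, 181 and 10595 CPM, REL at 420, 271 and 1185 CPM and NFKB1 at 62.3, 24.6 and 327 CPM.

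Across the 16 sums of a cell class in a library with 20 or more cells, the genes whose log2(CPM + 10) ran most like that of LY96 were PPP1R14A, ASAH1, WDR41, PPP1R9A and MTSS1. Their Pearson r was 0.901, 0.886, 0.881, 0.877 and 0.874, and of 7284 candidate genes 1 passed 0.9 and 55 passed 0.8. The sums share 3 libraries, with their depth and base composition, and macrophage or dendritic cells set the upper end. PPP1R14A, which encodes an inhibitor of myosin phosphatase, was at 213 CPM with concentrate, 238 CPM with hay and 374 CPM with milk only in macrophage or dendritic cells, against 5.08, 2.22 and 1.41 CPM in keratinocytes. ASAH1, the lysosomal acid ceramidase, was at 280, 173 and 216 CPM in macrophage or dendritic cells and at 45.8, 35.7 and 33.3 CPM in keratinocytes.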

How the data were processed

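The deposited matrices, 1 per library, hold UMI counts per gene and barcode as the authors made them. The submitters' processing notes name Cell Ranger 3.1, the file headers name cellranger 5.0.0, and neither source names the build, annotation or strand setting. The lowest total among deposited barcodes was 1047 UMIs with concentrate, 2263 with hay and 727 with milk only.

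Barcodes with at least 500 genes and under 20% UMIs from 13 mitochondrial genes were kept. Counts were scaled to 10000 per cell, log-transformed and clustered with scanpy 1.11.5 (2000 variable genes, 30 components, 15 neighbours, Leiden resolution 0.6 with leidenalg 0.10.2), with no integration. Doublets were neither called nor removed. A cluster took the name of a marker list with at least 3 genes at 20 CPM or more and 2-fold over other cells, the highest median fold or the most leading genes deciding between lists; spinous and granular lists were joined as differentiated, and clusters with no winner became other keratinocytes. This procedure was chosen after the clusters were seen. The members and lists were chosen with earlier results of these data known.

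UMIs were summed per class and library. CPM has exact Poisson, shares exact Clopper-Pearson and ratios exact conditional binomial 95% intervals, which treat UMIs as independent molecules. No replicate exists, so no test was run. A gene was called at 1.5-fold with an interval excluding 1, if at 10 CPM in 1 library and 10 UMIs over the 2. The UMI minimum was set after seeing the data. In a list's median, a library at 0 was set to 3 counts. The calculation of ratios and calls was checked on simulated Poisson counts, the model that the intervals assume. That simulation had no variation between cells, libraries or animals, so it says nothing of differences between single libraries. Text names LY96, ligand-handling and receptor-complex genes at 10 CPM, up to 4 genes of other lists with the largest ratios, and the 5 genes most like LY96; others are named for completeness of a list, after their values were seen.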

Additional observations from a re-analysis of the deposited data

Results flagged for a closer look

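LY96 also appears in the barcodes that the filters removed, which enter no comparison above. Their level was 22.5 CPM in 4323 concentrate barcodes (20.2 to 25.02) and 23.1 CPM in 2512 hay barcodes (20.4 to 26.0), both above the 9.07 CPM of 3182 milk-only barcodes (7.47 to 10.9). The ratio to milk only was 2.48 (1.996 to 3.10) with concentrate and 2.55 (2.04 to 3.20) with hay. Among those under the gene minimum it was 1.31 (0.828 to 2.10) with concentrate, an interval that includes 1, and 1.96 (1.03 to 3.59) with hay. Among those with enough genes but too high a mitochondrial share it was 2.57 (1.996 to 3.35) and 1.86 (1.44 to 2.44). Median mitochondrial shares in these barcodes were 45.3%, 31.1% and 32.8% with concentrate, hay and milk only, and their part in the level was not tested.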

How the results depend on the processing

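LY96 stayed higher with both concentrate and hay than with milk only under all 14 alternatives run for each ratio, from 2.37 to 3.33 times for concentrate and from 2.54 to 3.73 times for hay. The log2 ratio of hay over milk only left its interval with size factors (1.90), totals without the 50 most abundant genes (1.88), all deposited barcodes (1.34), states weighted alike (1.59) and, chosen after seeing the data, cells of 4000 to under 8000 UMIs (1.54). Concentrate over milk only did so with all deposited barcodes (1.24). Concentrate over hay was −0.27 with size factors and changed sign to 0.18 in cells of 4000 to under 8000 UMIs. Keratinocyte shares with LY96 were 11.7%, 11.8% and 3.68% at 2000 UMIs and 12.9%, 7.25% and 4.96% at 2 or more UMIs with concentrate, hay and milk only. Of 76 LY96 levels by class under other filters and resolutions 71 stayed in their interval, but some of them could hardly move. A minimum of 2263 UMIs, 1 of the filters, was the hay library's own lowest total. Macrophage or dendritic and endothelial cells were equal in number at every resolution. Listed LPS genes lower with concentrate than with milk only numbered 25 of 53 at 1 CPM (18.6% of all genes), 6 of 7 at 50 CPM (12.4%), 7 of 21 at 2-fold (6.44%) and 5 of 21 without milk-only cluster 6 (12.4%), against 11 of 21 as reported. Those higher were 4 of 53 at 1 CPM (10.4%) and 0 of 7 at 50 CPM (9.33%), against 1 of 21. With hay, 27 of 54 at 1 CPM (29.1%), 6 of 7 at 50 CPM (17.6%) and 8 of 20 at 2-fold (9.87%) were lower, against 12 of 20, and 5 of 54 at 1 CPM (5.25%) higher, against 0. For concentrate over hay, 0 of 4 at 50 CPM (1.94%), 0 of 17 at 2-fold (0.519%) and 2 of 17 with size factors (4.47%) were lower, against 1 of 17, and 6 of 46 at 1 CPM (19.1%) and 4 of 18 in cells of 4000 to under 8000 UMIs (19.7%) higher, against 0. The cause of these moves was not tested, except that CPM minimums change how many genes are measured. The genes most like LY96 by Spearman's rho were HSD17B4, PIKFYVE, ZNF354B, GLOD4 and PPP1R14A, and over 27 cluster sums PPP1R14A, GLOD4, HSD17B4, ZNF354B and ASAH1. No paired analysis was possible because each diet has 1 library. With 1 library per diet, intervals say nothing of animals; classes under 60 cells give LY96 levels from 60 UMIs or fewer.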

Other observations

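LY96 in keratinocytes was also split by properties of the cell. By tertile of KRT15 level, from low to high, it was 51.7, 66.9 and 61.7 CPM with concentrate, 51.6, 68.0 and 68.8 CPM with hay and 17.3, 18.4 and 20.3 CPM with milk only. By quartile of mitochondrial share, from low to high, it was 63.0, 63.6, 57.9 and 53.4 CPM with concentrate. With hay it was 65.9, 71.4, 61.8 and 50.9 CPM, and with milk only 23.6, 17.2, 19.5 and 17.1 CPM. With hay the highest quartile of mitochondrial share held the lowest level (46.7 to 55.2), clear of the third (57.5 to 66.5). With concentrate it was also lowest, but its interval (49.2 to 57.9) overlapped that of the third quartile (53.7 to 62.4). With milk only the highest quartile (15.1 to 19.3) could not be told from the second (14.9 to 19.8).

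TMEM70, a mitochondrial assembly factor that lies next to LY96 in the RefSeq annotation of assembly ARS-UI_Ramb_v3.0, was at 13.2 CPM with concentrate, 17.0 CPM with hay and 9.86 CPM with milk only in keratinocytes, a log2 ratio to milk only of 0.42 and 0.79. UBE2W, which lies further along on the same side in that annotation, was at 2.90, 1.86 and 2.74 CPM. Its log2 ratio to milk only was 0.08 with concentrate and −0.56 with hay. That annotation also places a long non-coding RNA over LY96; the strand setting of the counting is unknown here, so reads of both cannot be told apart.

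Over the 20 sums of keratinocyte clusters by library alone, chosen after seeing the data, the genes most like LY96 were FKBP11, LYPD6, RPS10, NUCB1 and RPL28, with Pearson r from 0.787 to 0.827. FKBP11, a chaperone of the secretory pathway, was at 299 CPM with concentrate, 381 CPM with hay and 227 CPM with milk only in keratinocytes, and its r with LY96 over all classes was 0.07.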
